A study of Mus musculus with 12 samples.

Results

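Across 6 peak lists from mouse hippocampus, 1097 of 69718 peaks on chromosomes 1 to 19 overlapped no protein-coding gene span by even 1 base, which is 1.57% of them. These 1097 peaks, called outside peaks here, were found by setting the deposited peak coordinates (build mm10) against the RefSeq gene table of GRCm38.p6, on either strand, without use of any score or age. A further 2601 peaks on X and Y were left out of the selection. Each list came from 1 immunoprecipitation (IP) library and its input. The aged group was 3 lists from hippocampus at 18 months and the young group 3 lists at 3 months, all from female wild-type C57BL/6 mice that received no other stated treatment. Natural aging is thus the only difference the labels give, and they leave unsaid if each sample is a different animal. The p-values below thus refer to the spread among these samples, part of which may be technical. RNA was fragmented and captured with an antibody to 5-methylcytosine (m5C), and a peak marks a stretch where the captured RNA piled up over input. No read counts came with the lists, so depth is unknown.

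5-Methylcytosine is cytosine with a methyl group on its ring, and it is found in transfer RNA, ribosomal RNA, messenger RNA and noncoding RNA, where enzymes of the NSUN family and DNMT2 place it. Outside coding genes, transcripts can come from long noncoding RNA (lncRNA) genes, from microRNA genes, and from pseudogenes, which are copies of genes that have usually lost the ability to code for the protein. Many mouse pseudogenes are processed copies made from messenger RNA by reverse transcription, so they resemble the mature transcript of their parent gene closely. Others lie in tandem arrays of duplicated genes. Reads from nearly identical copies cannot be assigned to 1 copy with certainty, and how the authors treated reads with several matches is not given in the available sources. Each region on a pseudogene or in such an array is therefore uncertain as to its source.

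As a check of the tissue, 7 of 8 marker genes of hippocampal neurons had a peak in all 6 lists (Prox1, Zbtb20, Neurod6, Camk2a, Snap25, Calb1 and Neurod2). Of the other cells' markers described here, all 6 lists held peaks in 1 of 4 for astrocytes (Gfap), 1 of 4 for microglia (Cx3cr1), 1 of 3 for endothelium (Flt1) and 0 of 3 for choroid plexus. None of these markers was the nearest coding gene of an outside region. In bulk tissue, a change in the number of cells of a type and a change of the RNA per cell cannot be told apart.

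Touching or overlapping peaks of 1 strand from any list were joined into 23698 consensus regions, of which 346 lay wholly outside coding genes. These 346 outside regions held 1075 of the outside peaks, and the other 22 joined regions that reached a gene. Sequence was at hand for the few that held a mature microRNA or a promoter window of the RefSeq tables. Outside regions held 3 microRNA genes, and 2 of these lay on the strand of the region. The region at chr1:20679010-20679165 on the plus strand contained all 73 bases of the hairpin of miR-206, a microRNA best known from skeletal muscle, within its host transcript Lincmd1. The region at chr13:74406396-74407317 on the plus strand contained miR-692 within Ftl1-ps1, a pseudogene named after the ferritin light chain gene. The mature sequences are shown with the seed, bases 2 to 8, in capitals, since the seed decides which messenger RNAs a microRNA can pair with, and these 3 seeds are different from each other.
mmu-miR-206-5p: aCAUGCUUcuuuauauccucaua
mmu-miR-206-3p: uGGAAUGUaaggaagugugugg
mmu-miR-692: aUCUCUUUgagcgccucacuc
The miR-206 region had no peak in any aged list and had a peak in young 2 (score 174) and young 3 (score 172), but not in young 1. The miR-692 region had peaks in all 6 lists. A region on the minus strand of chromosome 12 also covered miR-8099, which lies on the plus strand, so that region is opposite to the microRNA.

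Promoter windows (250 bases before to 50 after the start of a gene, RefSeq, GRCm38.p6) overlapped outside regions for 6 genes of the chromosomes searched, which left out 1 autosome. The windows below are shown because a pair of them makes visible how alike the copies on chromosome 14 are, and because, of the 6, the 9130230L23Rik window had a peak in the most lists. Each is printed 5′ to 3′ on the strand of its gene, with the bases inside the outside region in capitals. They lie at chr14:42162443-42162742 (Gm17027), chr14:42993445-42993744 (Gm8082) and chr5:66004236-66004535 (9130230L23Rik), all on the minus strand.
Gm17027: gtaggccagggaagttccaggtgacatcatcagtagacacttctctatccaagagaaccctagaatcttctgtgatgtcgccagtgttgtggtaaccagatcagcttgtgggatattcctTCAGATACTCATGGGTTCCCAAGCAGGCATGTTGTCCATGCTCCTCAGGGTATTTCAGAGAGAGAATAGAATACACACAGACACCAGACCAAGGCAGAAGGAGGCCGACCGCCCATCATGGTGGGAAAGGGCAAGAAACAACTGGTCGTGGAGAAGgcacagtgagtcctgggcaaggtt
Gm8082: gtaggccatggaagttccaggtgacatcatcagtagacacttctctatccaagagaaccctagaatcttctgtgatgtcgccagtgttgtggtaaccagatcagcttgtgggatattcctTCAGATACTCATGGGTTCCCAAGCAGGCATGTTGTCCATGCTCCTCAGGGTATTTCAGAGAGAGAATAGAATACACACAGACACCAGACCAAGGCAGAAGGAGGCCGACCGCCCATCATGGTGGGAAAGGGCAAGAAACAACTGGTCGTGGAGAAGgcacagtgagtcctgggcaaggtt
9130230L23Rik: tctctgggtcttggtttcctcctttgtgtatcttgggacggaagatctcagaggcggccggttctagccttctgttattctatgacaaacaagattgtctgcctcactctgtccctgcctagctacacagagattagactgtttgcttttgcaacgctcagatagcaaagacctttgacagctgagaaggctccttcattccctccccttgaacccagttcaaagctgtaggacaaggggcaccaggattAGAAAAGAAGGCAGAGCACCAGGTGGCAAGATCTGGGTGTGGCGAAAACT
The Gm17027 and Gm8082 windows shared 299 of 300 bases and all 156 bases inside the regions, of which 36 were cytosines. Both regions had their only peak in young 3, with scores of 66.2 and 57.7. The 9130230L23Rik region, in a lncRNA 12263 bases from the coding gene Rbm47, had peaks in aged 2 (62.6), aged 3 (93.7), young 1 (152) and young 2 (119). It had 8 cytosines among the 50 bases of the window that the region covered.

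The first comparison asked whether outside peaks differed in number between aged and young hippocampus. The aged lists held 178, 172 and 179 outside peaks, against 181, 196 and 191 in the young lists. The groups did not overlap, and the aged lists were slightly lower, with 176 ± 3.79 outside peaks against 189 ± 7.64 in young lists (SD, n = 3 each), a ratio of 0.931. In the same lists, peaks in coding genes numbered 14519, 13344 and 13614 with aging, against 9332, 8000 and 9812 in young lists, a ratio of 1.53. Outside peaks therefore made up 1.21%, 1.27% and 1.30% of the aged lists, against 1.903%, 2.39% and 1.91% of the young lists. The difference in this share was −0.807 percentage points. All 3 comparisons gave an exact permutation p of 0.1 (two-sided), below which 3 lists against 3 cannot go, and the number and the share had a Benjamini-Hochberg adjusted exact p of 0.167 over the 5 planned comparisons of age.

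**Figure D1:**
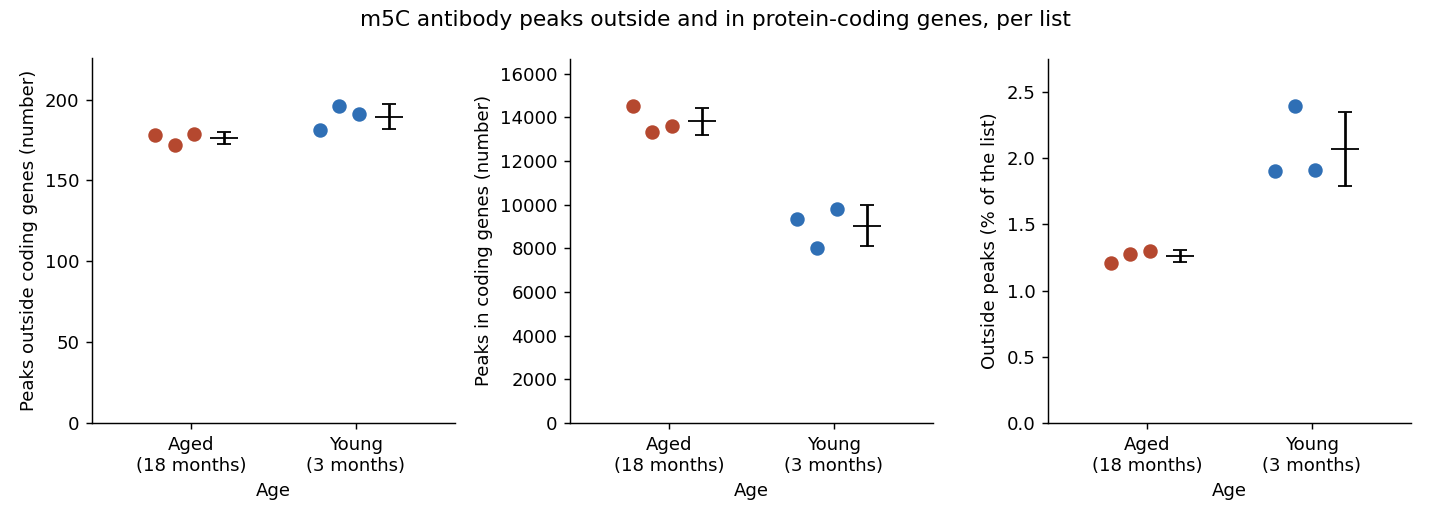
Number of peaks outside coding genes (left), number of peaks in coding genes (middle) and outside peaks as a percentage of the list (right), with 1 point per list, aged lists left of young lists, and mean ± SD as black bars (n = 3 each). Outside peaks numbered 172 to 179 in aged and 181 to 196 in young lists, while peaks in coding genes were more numerous in every aged list.

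The difference between the ages was largest on chromosome 14. This chromosome held the most outside regions, 48, and outside peaks made up 3.94% of all its peaks, the highest share of any of the 19 chromosomes. It had 14, 13 and 16 outside peaks in the aged lists, against 22, 30 and 22 in the young lists. The sums were 43 aged and 74 young peaks, beside totals of 529 aged and 568 young outside peaks on all chromosomes. Without chromosome 14, an alternative chosen after the values were seen, the aged lists had 164, 159 and 163 outside peaks, against 159, 166 and 169 in the young lists, and the groups overlapped (exact permutation p = 0.5). The share of the list stayed lower in all aged lists without it, with a difference of −0.675 percentage points (exact permutation p = 0.1). Cutting all lists to their 8196 highest-scoring peaks, the length of the shortest list, gave 103, 102 and 103 outside peaks in aged lists, against 160, 196 and 165 in young lists. At 1 length the number restates the share and is not a separate result. That share was 1.25% in aged and 2.12% in young cut lists on average, beside 1.26% and 2.07% of the whole lists. The order of the ages in the number of outside peaks turned round under other definitions of outside. Aged lists had 6.67 more on average where only coding genes on the strand of the peak or of unknown strand counted (exact permutation p = 0.3). They had 7 more where the midpoint of the peak decided (exact permutation p = 0.3).

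Within chromosome 14, most regions lay in 2 stretches of mostly predicted genes, picked out after the values were seen and so given with no test. The stretch at chr14:41488305-44198976 held 11 regions of 131 to 185 bases, 7 of them on lncRNA genes. It had 1, 0 and 0 peaks in the aged lists, against 4, 6 and 5 in the young lists. Of its 11 regions, 10 had no aged peak, beside 100 (28.9%) of all 346 outside regions. The Gm17027 and Gm8082 windows printed above belong to this stretch. Its regions were weak, with mean best scores of 52.1 to 131 on a scale that starts at 50, and none was present in all 6 lists. The stretch at chr14:3269901-7643972 held 23 regions, 13 of them on pseudogenes, with 7, 4 and 8 peaks in the aged lists, against 7, 16 and 8 in the young lists. There the surplus was in young 2 alone.

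Each region was then read by the lists that held it. Of the 346 outside regions, 115 had a peak in 1 list, 66 in 2, 39 in 3, 25 in 4, 32 in 5 and 69 in all 6. The share in all 6 lists was 19.9%, beside 17.4% of regions in coding genes. Regions with peaks only in aged lists numbered 69 (19.9%), against 100 (28.9%) with peaks only in young lists. In coding genes these shares were 39.3% for only aged and 13.2% for only young lists. Among the outside regions, 96 were in more aged than young lists, 139 in more young than aged lists and 111 in equal numbers.

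Regions with peaks in every aged list and in no young list are called aged-only, and those with peaks in every young list and in no aged list young-only. There were 8 aged-only outside regions, 2.31%, beside 5.14% of all 23698 regions. There were 7 young-only outside regions, 2.02%, beside 0.616% of all regions. The aged-only share thus lay below the background and the young-only share above it. Both counts are small, and with lists cut to equal length they were 3 aged-only and 18 young-only outside regions of 278, with backgrounds of 2.04% for aged-only and 1.86% for young-only. Without the clusters described below they were 5 aged-only and 4 young-only, of a smaller set of outside regions whose size is not given here. With 1 list left out, so that fewer lists had to meet the rule, aged-only regions numbered 17 without aged 1 and 13 without aged 2. Young-only regions numbered 18 without young 3, 13 without young 1, 12 without young 2 and 11 without aged 3. Over the 6 ways to leave out a list, the aged-only share of outside regions was 2.40% to 5.11%, beside 6.32% to 9.46% of all regions, and the young-only share 2.14% to 5.57%, beside 0.893% to 1.36%.

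Peaks in outside regions that all 6 lists shared made up 43.3%, 43.6% and 43.0% of the outside peaks of the aged lists, against 39.2%, 39.3% and 39.8% in the young lists. For peaks in coding genes the same shares were 28.4%, 30.9% and 30.3% in aged lists, against 44.0%, 51.2% and 41.9% in young lists. Outside minus coding, the difference was 13.4 ± 1.22 percentage points in aged lists, against −6.27 ± 5.04 in young lists (SD, n = 3 each). All aged lists were positive and all young lists negative (exact permutation p = 0.1, two-sided). Over the 6 lists together the mean of 3.58 did not pass an exact sign-flip permutation test (p = 0.5, adjusted 0.5 over 3 such tests). Of the regions in all 6 lists, 59 of 69 outside and 3902 of 4055 in coding genes held 1 peak of each list. Such regions add near equal numbers of peaks to every list, so their share falls as a list's number of peaks rises. The difference between the ages thus largely restates the numbers of peaks and is not a separate result of recurrence. With all lists cut to 8196 peaks, outside minus coding was 11.1 ± 2.15 percentage points in aged lists, against −10.98 ± 2.51 in young lists. Equal length does not remove this dependence, since the numbers of outside peaks still differed.

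**Figure D2:**
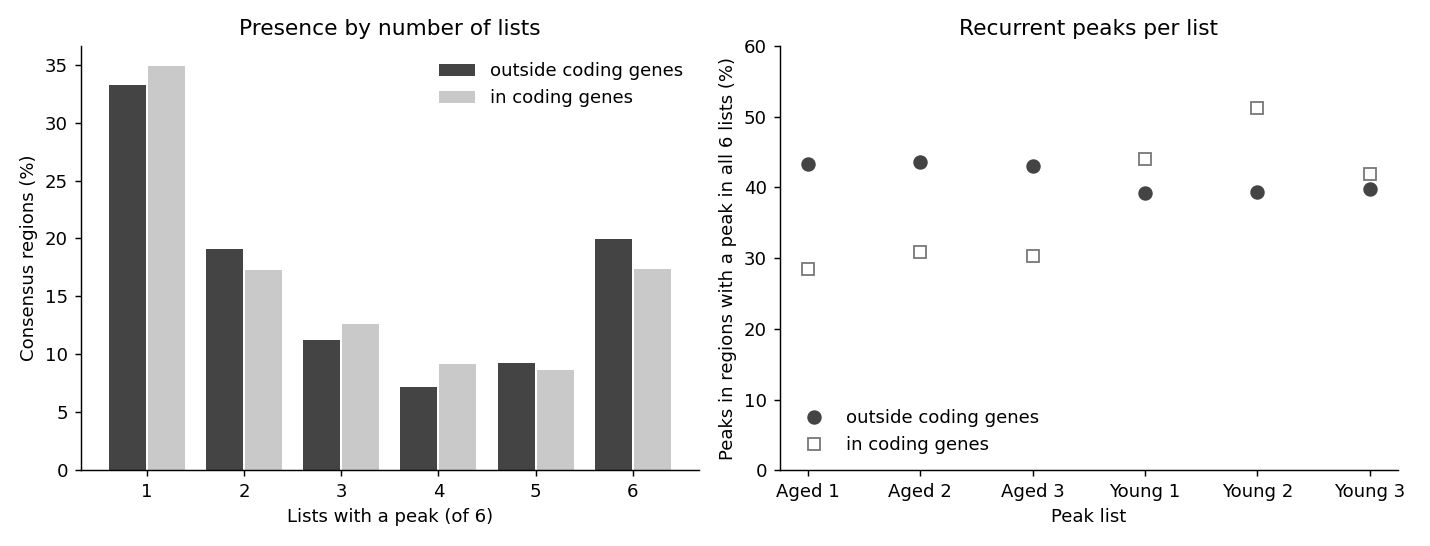
Left, percentage of consensus regions by the number of lists with a peak (1 to 6), for 346 outside regions (dark bars) and for regions in coding genes (light bars). Right, percentage of each list's peaks that lay in regions present in all 6 lists, outside coding genes (filled circles) and in them (open squares). The outside values span 39.2% to 43.6% in all lists, whereas the coding values are lower in aged than in young lists.

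Outside peaks were wider than peaks in coding genes in every list. Their median width was 637, 581 and 622 bases in the aged lists, and peaks in coding genes had median widths of 215, 216 and 223 bases there. In the young lists the medians were 622, 534 and 632 bases for outside peaks, and 222, 214 and 225 bases for peaks in coding genes. The difference averaged 386 ± 37.1 bases (SD, n = 6 lists) and had the smallest exact sign-flip permutation p that 6 lists allow (p = 0.031, adjusted 0.09375 over the 3 comparisons with coding genes). The authors' score was higher for outside peaks in 5 of 6 lists, with aged 3 as the exception. Its median was 156, 145 and 134 for outside peaks in aged lists, beside 142, 143 and 141 in coding genes of the same lists. In young lists it was 143, 133 and 132 for outside peaks, beside 135, 116 and 121 in coding genes. The mean log2 ratio was 0.08 ± 0.09 (SD, n = 6, exact sign-flip permutation p = 0.09375, adjusted 0.140625). Its sign reversed among peaks at or above the median score of their list (log2 −0.016), with coding genes on the strand of the peak only (log2 −0.019) and without the clusters described below (log2 −0.012). Score and width differed by the kinds of annotation described below. Outside peaks on lncRNAs scored below coding peaks in every list, with medians of 85.3, 112 and 90.4 in aged lists. In young lists their medians were 111, 104 and 90.9. Their median widths passed those of coding peaks only in aged 3 (340 bases) and young 2 (241 bases). Outside peaks on pseudogenes had higher median scores and widths than coding peaks in all 6 lists.

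Pseudogenes were the most frequent annotation. On either strand, 204 regions (59.0%) overlapped a pseudogene, 40 (11.6%) a lncRNA and no pseudogene, and 12 (3.47%) only a gene of another kind, such as the T-cell receptor alpha locus Tcra. The remaining 90 (26.0%) overlapped no annotated gene. Pseudogene spans take 1.66% of the bases between coding genes and lncRNA spans 11.8%. The regions touched 167 pseudogenes, and 163 of the 7391 pseudogenes that lie outside coding genes had a region (2.21%). Of the lncRNA regions, 27 had a gene of known strand, and 24 of these lay on its strand.

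Regions on pseudogenes had a median width of 588.5 bases, those on lncRNAs 232 and those without annotation 308. A pseudogene region covered a median of 27.2% of the pseudogene, and 46 regions covered at least 90% of it. All 6 lists held 48 of the pseudogene regions (23.5%), 4 of the 40 lncRNA regions and 17 of those without annotation (18.9%). Of the 40 lncRNA regions, 7 were only in aged lists, against 16 only in young lists, and several of the 16 lay in the chromosome 14 stretch described above. Of the 204 pseudogene regions these numbers were 37 and 48, and of the 90 without annotation 23 and 30. Over all 346 outside regions they were 69 (19.9%) and 100 (28.9%).

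Numbers of outside peaks by annotation overlapped between the ages. Pseudogene peaks numbered 117, 114 and 110 in aged lists, against 114, 121 and 127 in young lists (exact permutation p = 0.3). Peaks on lncRNAs numbered 18, 10 and 14 in aged lists, against 17, 21 and 17 in young lists (exact permutation p = 0.3). Peaks with no annotation numbered 42, 45 and 51 in aged lists, against 46, 49 and 45 in young lists (exact permutation p = 0.9). The share of outside peaks on any annotated noncoding gene or pseudogene was 73.9% ± 2.45 in aged lists and 75.3% ± 0.973 in young lists (SD, n = 3 each, exact permutation p = 0.4, adjusted 0.4). This share depended on the definition of outside, since the difference of −1.43 percentage points became −4.62 with coding genes on the strand of the peak only and −5.94 where the midpoint of the peak decided, and the ages did not overlap in either (exact permutation p = 0.1 each). Without aged 1 it was −2.67 points (exact permutation p = 0.1), and it reversed in the settings named in the closing section.

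**Figure D3:**
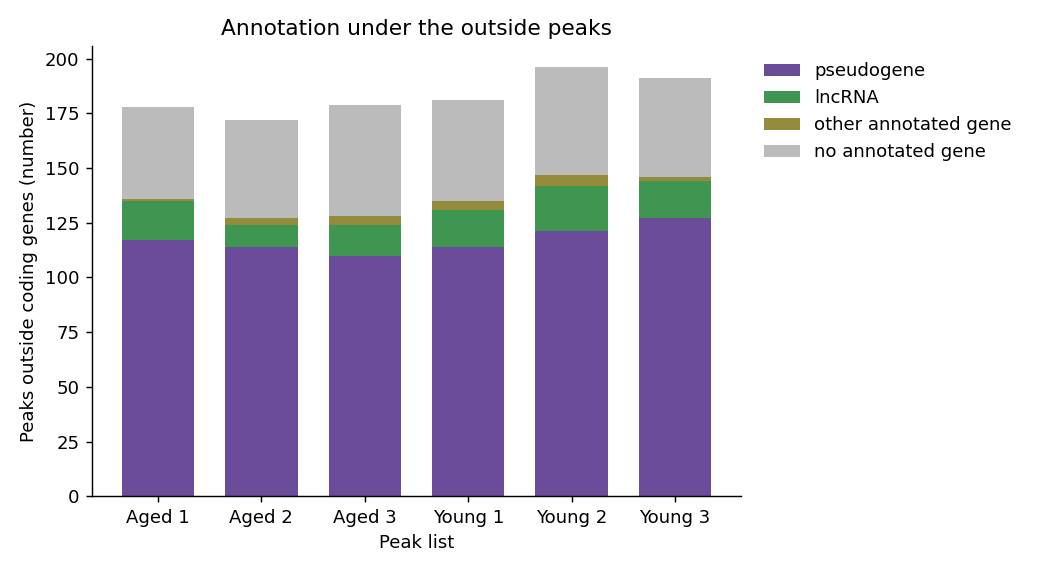
Number of outside peaks per list by the annotation they overlap on either strand, stacked as pseudogene, lncRNA, other annotated gene and no annotated gene, with aged lists left of young lists. Pseudogenes take 110 to 127 peaks in every list, and the part without annotation 42 to 51.

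Several pseudogene regions were among the highest scoring of all outside regions. A score of 3100 was shared by 47 outside peaks, only 3 were higher (up to 3191), and peaks at 3100 cannot be ranked among themselves. A run of 7 copies on chromosome 2 (Gm13698, Gm13693, Gm13695, Gm13696, Gm13694, Gm13697 and Gm13691) had a plus-strand region of 2493 bases on each copy, spaced exactly 5810 bases apart at chr2:83955693-83993045. Each region covered 81.6% of its pseudogene, and all 7 were present in all 6 lists. Gm13694 scored 3131, 3100 and 3100 in aged lists and 3100 in all 3 young lists. Gm13697 scored 1453, 1314 and 1521 in aged lists and 1321, 1878 and 2073 in young lists. Gm13695 scored 247, 261 and 240 in aged lists and 529, 357 and 346 in young lists. Scores of copies thus differed although the peaks had 1 width and the same place in each copy. The copies other than Gm13694 were named after their values were seen. No test compared scores between lists, because the lists may not share 1 scale. Averages of scores over lists served only to choose, order and describe regions.

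Of the other pseudogene regions with the highest scores, Gm8991 (chr5:16730640-16731074, minus strand) scored 3100 in all 6 lists. Gm9843 (chr16:76403209-76403712, minus strand), 29381 bases from Nrip1, scored 3100 in the 3 aged lists and scored 3140, 2355 and 3100 in young lists. Gm4204 (chr1:135232045-135233404, plus strand) scored 3100 in the 3 aged lists and scored 2501, 854 and 1706 in young lists. Gm6563 (chr19:23675844-23676712, plus strand) scored 3100, 2225 and 2948 in aged lists and 1516, 1029 and 1752 in young lists. All 4 were present at both ages.

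Some regions lay on pseudogenes whose names give a parent gene. There were 29 such regions from 23 parents. Of the parents, 5 (21.7%) had a peak of their own in all 6 lists, beside 14.3% of all coding genes, and 10 (43.5%) had one in none, beside 55.5% of all coding genes. Rpsa-ps10, a copy of a small ribosomal subunit protein gene, was covered along its whole length at chr3:150072590-150073620 (minus strand). It scored 1267, 2269 and 3100 in aged lists and 866, 1010 and 2059 in young lists, and the parent Rpsa also had peaks in all 6 lists. Tpm3-rs7, a copy of a tropomyosin gene at chr14:113314608-113316713 (plus strand), scored 1323, 1585 and 1691 in aged lists and 683, 844 and 475 in young lists, and Tpm3 had peaks in all 6. Ftl1-ps1 was covered over 99.1% of its span and scored 153, 110 and 132 in aged lists and 957, 422 and 322 in young lists. Ftl1 itself had no peak in any list. Further parents with no peak while a copy had one were Rps18, Rps10, Rpl9, Rpl10, Rpl13, Rpl21, Srsf3, Hdac1 and Ccl19. The regions counted for Ccl19 each covered at most 2.23% of Ccl19-ps2, a small part of that pseudogene.

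Ribosomal protein pseudogenes are the largest family of processed copies in mammals. Of 212 that lie outside coding genes, 11 had a region, beside 163 of all 7391 pseudogenes outside coding genes (2.21%). Of the 11, 3 were in all 6 lists, on Rpsa-ps10, Rps18-ps3 and Rps10-ps1, beside 23.5% of all pseudogene regions. Rps18-ps3 scored 120, 71.1 and 171 in aged lists and 310, 217 and 150 in young lists. Rps10-ps1 scored 154, 151 and 115 in aged lists and 149, 58.3 and 108 in young lists. The other 8 were in 1 to 5 lists. Of these, Rps4l-ps (3 aged lists, 2 young lists) and Rpl15-ps6 (1 aged list, 0 young lists) were in more aged lists. Rps3a2 (2 aged lists, 3 young lists), Rpl10-ps3, Rpl13-ps3 and Rpl21-ps6 (1 aged list, 2 young lists each) were in more young lists. Rpl9-ps6 and Rpl6l were in equal numbers. Among all 346 outside regions, 96 were in more aged lists, 139 in more young lists and 111 in equal numbers.

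Few lncRNA genes had an outside region, 36 of the 7907 that lie outside coding genes (0.455%). Counts for short lists of known noncoding genes are given beside that background and say nothing particular about them. Of 17 nuclear and neuronal lncRNAs that lie outside coding genes, Mir124a-1hg, the host of the neuronal microRNA miR-124, was the only one touched, by a 40-base region with a score of 135 in aged 2 alone, and the strand of that gene was not known. It is named after its value was seen. No region touched the 2 imprinted genes, the 14 snoRNA host genes or the 10 small structured RNA genes of the lists that lie outside coding genes. The lists were named for messenger RNA by the authors, and whether they removed noncoding genes is not stated in the labels.

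Among the lncRNA regions, those present in all 6 lists lay on 9630015K15Rik, 1500009C09Rik, 1700110I01Rik and AI504432, the last beside Gm38712. The 9630015K15Rik region (chr14:64116314-64116405, plus strand) was 92 bases wide and scored 1171, 1681 and 1168 in aged lists and 660, 539 and 661 in young lists. The 1500009C09Rik region (chr15:82259565-82260753, plus strand), on the strand of its gene and 8048 bases from Septin3, scored 927, 257 and 763 in aged lists and 313, 329 and 204 in young lists. These regions were named after their values were seen, by their presence in all 6 lists.

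Regions without annotation included some of the strongest and most isolated peaks. A pair at chr2:98662237-98662522 (plus strand) and chr2:98666735-98667040 (minus strand) scored 3100 in all 6 lists and lay over 1 Mb from Lrrc4c, a synaptic adhesion gene that was the nearest coding gene. This stretch of chromosome 2 is one that lists of abnormally high signal in mouse short-read data commonly carry. The regions at chr14:19417133-19417366 (minus strand) and chr15:91908148-91910542 (plus strand) scored 3100 in all 6 lists too, 116333 bases from Gm2244 and 46712 bases from Smgc. A region at chr5:117773625-117775003 (plus strand) began 5628 bases past the end of Ksr2, which codes for a scaffold of Ras signalling. It scored 3191, 2449 and 3070 in aged lists and 2358, 1432 and 1987 in young lists.

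**Figure D4:**
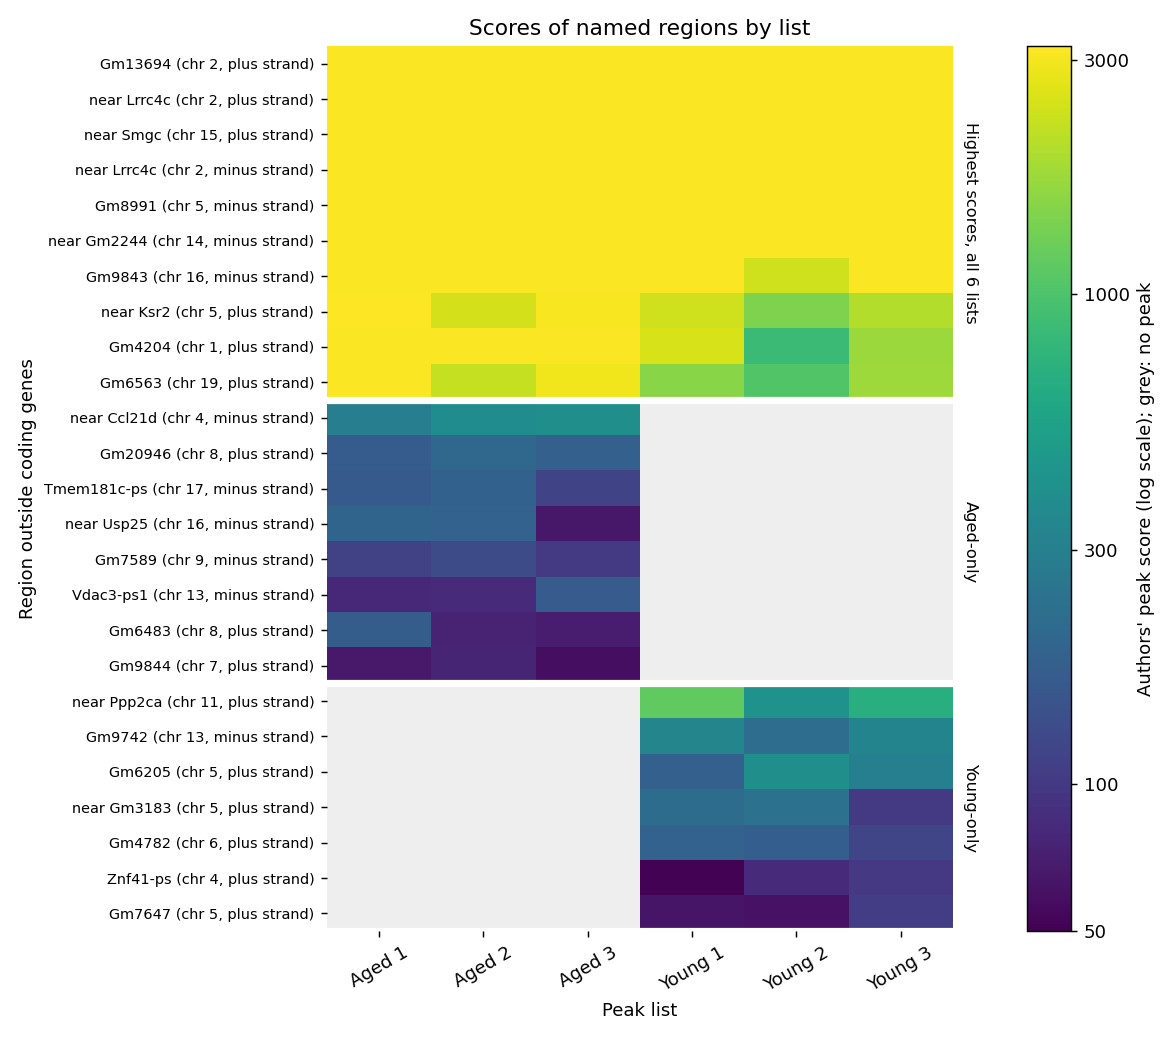
Authors' peak score (colour, log scale) in each list for the 10 outside regions with the highest mean score among those in all 6 lists, the 8 aged-only and the 7 young-only regions, with light grey for no peak and aged lists left of young lists. Each row gives the annotated gene, or the nearest coding gene where there is none, with chromosome and strand. The upper block lies between 854 and 3191, and most aged-only and young-only regions scored below 400.

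The 8 aged-only regions were all of modest score. A pseudogene name below stands for the aged-only region on it, and the pseudogene can hold other regions at both ages, as Gm20946 did with 2 regions in all 6 lists and Tmem181c-ps with 1 in 2 aged and 3 young lists. The highest-scoring aged-only region was an unannotated one at chr4:41870187-41870612 (minus strand), 33000 bases from Ccl21d, a chemokine gene, with scores of 296, 377 and 397 in the aged lists. Gm20946 scored 167, 200 and 179, Tmem181c-ps 162, 183 and 117, and Gm7589 114, 131 and 101 in the aged lists. Vdac3-ps1, a copy of a mitochondrial channel gene, was covered over 99.5% of its span and scored 81.4, 83.7 and 164 in the aged lists. The parent Vdac3 had peaks in 3 aged lists and 1 young list. Gm9844, Gm6483 and an unannotated region of 23 bases at chr16:77588578-77588600 made up the rest.

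The young-only regions were led by 1 that lay near a coding gene. A plus-strand region of 919 bases at chr11:52126851-52127769 began 4101 bases past the end of Ppp2ca, which codes for the catalytic subunit of protein phosphatase 2A. It had no peak in the aged lists and scored 1169, 426 and 681 in the young lists. Gm9742 scored 332, 221 and 329 and Gm6205 179, 394 and 300 in the young lists. Gm6205, Gm7647 and a region 816 bases past Gm3183 lay within 1 cluster on chromosome 5, so 3 of the 7 young-only regions share a neighbourhood. Gm4782 (184, 174 and 118 in young lists) and Znf41-ps (51.0, 82.0 and 99.4 in young lists) completed the set. These names again stand for the young-only region alone. Znf41-ps also held a region in 2 aged and 3 young lists and another in 1 aged and 3 young lists. Gm7647 also held a region in all 6 lists. None of the 7 young-only regions lay on chromosome 14.

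The distance to coding genes varied widely. The gap to the nearest coding gene had a median of 25407.5 bases and ran from 3 to 1844123. It was under 1 kb for 18 regions and 1 Mb or more for 7. Pseudogene regions had a median gap of 30811.5 bases, lncRNA regions 25452.5 and regions without annotation 6976. The 5 farthest among those in at least 3 lists were Tpm3-rs7, Rpsa-ps10, Gm9726 on chromosome 12 and the chromosome 2 pair. Gm9726 scored 605, 482 and 254 in aged lists and 538, 458 and 459 in young lists.

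**Figure D5:**
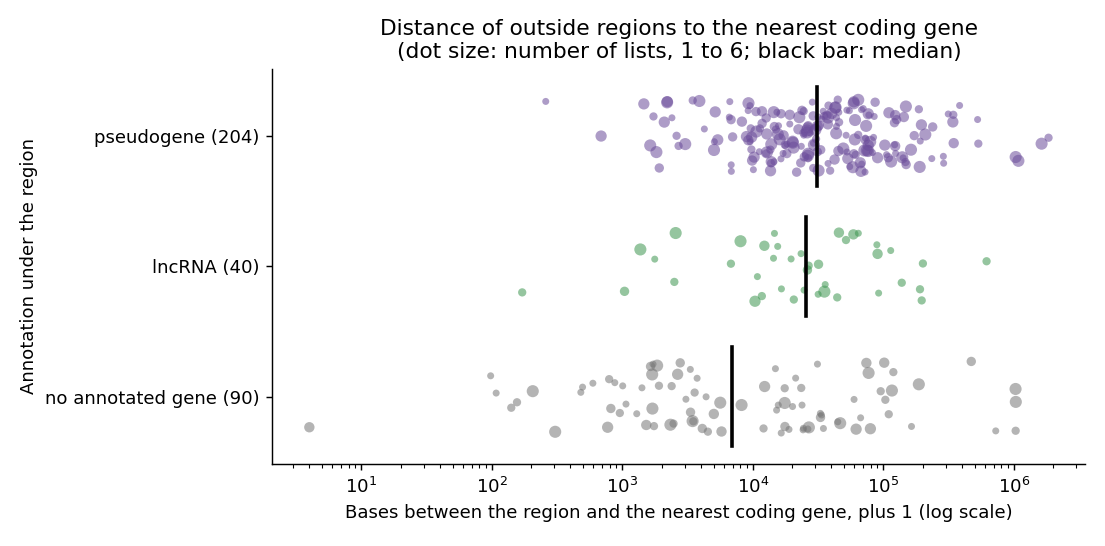
Distance from each outside region to the nearest coding gene (bases plus 1, log scale) by annotation, with 1 dot per region, dot size by the number of lists from 1 to 6, and the median as a black bar. The medians are 30811.5, 25452.5 and 6976 bases for pseudogene, lncRNA and unannotated regions, and the unannotated dots reach furthest to the left.

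Regions near a coding gene lay past its end more often than ahead of its start. Within 5 kb and on the strand of the gene, 38 regions were downstream of 35 genes, and 9 others were upstream. A pair of those counted as downstream also lay within 5 kb ahead of another gene, namely the Rps10-ps1 region, past Golph3l and ahead of Ensa, and a region past Tmem245 and ahead of Ctnnal1. Of the 90 regions without annotation, 29 (32.2%) were downstream and 7 (7.78%) upstream, beside 5 and 2 of the 204 pseudogene regions. Of the 35 genes, 21 (60%) had a peak of their own in some list, and 11 in all lists, beside 45.4% of all autosomal coding genes with a peak in any list. Downstream peaks were more numerous in every aged list than in any young list, with 30, 22 and 22 peaks in aged lists, against 21, 20 and 19 in young lists. As a share of outside peaks they made up 13.98% ± 2.50 in aged lists and 10.6% ± 0.891 in young lists (SD, n = 3 each, exact permutation p = 0.1, adjusted 0.167). The difference of 3.39 points fell to 1.96 without aged 1 (exact permutation p = 0.2). It fell to 0.985 among peaks at or above the median score of their list (p = 0.5) and to 1.54 in lists of equal length (p = 0.3), both by exact permutation, and the ages overlapped in both. Upstream peaks made up 3.98% ± 1.02 in aged lists and 3.18% ± 0.634 in young lists (exact permutation p = 0.3, adjusted 0.375). Of the 38 downstream regions, 14 were in more aged lists, 8 in more young lists and 16 in equal numbers. Among all outside regions these shares were 27.7%, 40.2% and 32.1%, and among regions in coding genes 56.6%, 17.7% and 25.7%.

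Beside the Ppp2ca region, several downstream regions had high scores. A region of 3405 bases on chromosome 18 began 205 bases past Pura, which codes for a nucleic acid-binding protein of neurons. It scored 2398, 1099 and 1563 in aged lists and 1461, 811 and 572 in young lists. A second region 3903 bases past Pura scored 1553, 177 and 538 in aged lists and 221, 123 and 322 in young lists. The nearest coding gene of this second region was Igip, 1693 bases away and of unknown strand. Both regions were in all 6 lists, and the first was among the 5 widest outside regions. The region 1848 bases past Galnt17, of a family of glycosyltransferases, scored 336, 1042 and 786 in aged lists and 855, 698 and 614 in young lists. The region 2335 bases past Fbxl18, which codes for an F-box protein, scored 657, 451 and 325 in aged lists and 326, 286 and 227 in young lists. The region 1374 bases past Kcna3, a voltage-gated potassium channel gene, scored 514, 449 and 406 in aged lists and 171, 124 and 164 in young lists. Mmp16, a membrane-bound metalloproteinase gene, had a region 771 bases past its end in 3 aged lists and 2 young lists. Another region in all 6 lists, on the pseudogene Gm10269, lay 1635 bases past B4galt6, which codes for a galactosyltransferase, and scored 457, 311 and 374 in aged lists and 458, 155 and 595 in young lists. These genes were picked by score after the values were seen, except Pura, whose first region the rule for the widest regions names.

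Upstream regions lay ahead of genes such as Itgax, Cacng8, Trpm8, Coil, Nmb and Sirt1. The region 3071 bases ahead of Cacng8, an auxiliary subunit gene of AMPA receptors in hippocampus, had its only peak in aged 2 (166). The region 2777 bases ahead of Sirt1, a deacetylase gene, had peaks in aged 2 (58.2), aged 3 (65.5) and young 1 (64.4), all near the lower end of the scale. The region ahead of Coil was in all 6 lists. These upstream genes were chosen after their values were seen. None of the 20 presynaptic, 18 postsynaptic, 22 RNA-binding and splicing or 14 immediate early genes listed had an outside region within 5 kb on its strand, beside 45 (0.247%) of the 18228 autosomal coding genes of known strand.

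Outside regions were clustered along the genome. There were 8 clusters, each of at least 8 regions with gaps of at most 250 kb, which held 75 regions (21.7%). They lay on chromosome 4 near Ccl21d and Fam205a4 and near Ccl19 and Fam205a2, on chromosome 5 near Pramel44 and Pramel45, on chromosome 8 in a pair of stretches near Defb33 and 9530057J20Rik, on chromosome 14, and on chromosome 17 near Dynlt1b and near Tcp10c. Clusters held 32, 32 and 39 peaks in the aged lists, against 39, 43 and 40 in the young lists (exact permutation p = 0.2). Elsewhere there were 146, 140 and 140 in aged lists, against 142, 153 and 151 in young lists (exact permutation p = 0.2). The chromosome 5 cluster (chr5:94651655-95024282), in a family of germline-expressed leucine-rich repeat genes, had 3, 4 and 4 peaks in aged lists, against 7, 8 and 7 in young lists. It was the only one of the 8 clusters whose aged and young lists neither overlapped nor tied, and it was picked for that, so no test is given.

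Outside peaks more often had a neighbour of the same width. An outside peak had another peak of its list with exactly its width within 1 Mb on the same strand in 10.5%, 15.2% and 10.98% of cases in aged lists, against 16%, 20.4% and 18.1% in young lists, counting peaks of at least 50 bases. For peaks in coding genes this was so in 3.35%, 3.17% and 3.48% of cases in aged lists, against 3.60%, 3.81% and 3.80% in young lists. Every outside value lay above every coding value. The part of reads with several matches in the counts of outside peaks was not tested.

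The widest outside regions were 4907 bases at chr4:41881157-41886063 (plus strand), 4252 bases at chr8:20122373-20126624 (plus strand), 4122 bases on LOC108169009, the Pura region and 3319 bases on Gm21092. The chromosome 4 region scored 240, 312 and 1002 in aged lists and 710, 189 and 829 in young lists. The chromosome 8 region scored 246, 364 and 257 in aged lists and 306, 243 and 178 in young lists. Gm21092 had peaks of this region in aged 3 (626) and young 3 (1383) only.

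The bases covered by outside peaks overlapped between the ages. Outside peaks covered 151, 138 and 154 kb in aged lists, against 152, 149 and 163 kb in young lists, while peaks in coding genes covered 7463, 6729 and 7456 kb in aged lists, against 5171, 3893 and 5359 kb in young lists. The Jaccard index, the bases covered in both lists of a pair over those covered in either, averaged 0.556 between aged lists, 0.517 between young lists and 0.495 across the ages for outside peaks. For peaks in coding genes it averaged 0.510 between aged lists, 0.441 between young lists and 0.398 across the ages. The ranges of outside peaks overlapped, with 0.523 to 0.581 between aged lists, 0.511 to 0.528 between young lists and 0.453 to 0.564 across the ages. For peaks in coding genes they were 0.507 to 0.514, 0.417 to 0.468 and 0.332 to 0.434, so pairs across the ages overlapped the young pairs only.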

How the data were processed

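The authors deposited 1 peak list for each of the 6 IP libraries (3 per age), with an authors' score per peak that starts at 50 and takes the value 3100 in many peaks. Per the submitters' processing notes, cutadapt 1.9.3, HISAT2 2.0.4 and mm10 were used, and peak names carry the word MACS. The 6 input libraries have no list of their own. Lists held 8549 to 15189 peaks.

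Peaks were set against RefSeq spans of GRCm38.p6 (20665 coding genes on chromosomes 1 to 19) with Python 3.11.15, numpy 2.4.6 and pandas 2.3.3. That table gives no strand, so annotation was counted on either strand instead of the same strand as planned. Coding strand came from the promoter table for 16457 genes and from a gene's own peaks for 1771, and 2437 had none. Genes without a strand entered no upstream or downstream count. In the setting of coding genes on the strand of the peak only, they counted on both strands. Where both sources existed they gave 1 strand for 99.6%. No genome was used, so other regions have no sequence here.

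Ages were compared by exact permutation, and outside with coding peaks by exact sign-flip over 6 lists. The measures were tested on simulated lists. Named regions were the 10 highest-scoring in all 6 lists, the aged-only and young-only, those on listed noncoding genes or same-strand microRNAs, the 5 widest and the 5 farthest, and other regions were chosen after their values were seen. Members and lists were chosen with earlier results of these data known. Same-numbered samples did not deviate together, with correlations from −0.012 to 0.018. A few results are not reported here.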

Additional observations from a re-analysis of the deposited data

Results flagged for a closer look

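Outside peaks and peaks in coding genes moved in opposite directions between the ages. The aged lists had 13 fewer outside peaks on average, a difference of −13 (176 in aged, 189 in young lists), and more peaks in coding genes (13826 in aged, 9048 in young lists). All 3 aged lists lay on 1 side in each case. Outside peaks went the same way as coding peaks, however, with coding genes on the strand of the peak only (6.67 more in aged lists) and with the midpoint deciding (7 more), and without chromosome 14 the ages overlapped (exact permutation p = 0.5). The share of outside peaks, which sets these changes against each other, was tested (exact permutation p = 0.1).

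Recurrence showed opposite signs by age. Outside minus coding, the share of peaks in regions held by all 6 lists was 13.4 percentage points in aged lists and −6.27 in young lists, which had no overlap (exact permutation p = 0.1, the smallest possible for 3 against 3). Regions in all 6 lists add near equal numbers of peaks to every list. The opposite signs thus largely restate the numbers of peaks and are not a separate result.

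Peaks outside coding genes were also present on the sex chromosomes, which the selection left out. There were 45 on X, with 6, 8 and 10 in aged lists and 9, 6 and 6 in young lists. There were 23 on Y, with 4, 3 and 7 in aged lists and 4, 3 and 2 in young lists, although the mice are labelled female. All Y peaks lay between bases 90754513 and 90844074, near the distal end, where the mouse Y carries sequence shared with X. The source of these reads was not tested.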

How the results depend on the processing

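The lower share of outside peaks in aged lists kept its direction in all 14 other settings (−0.974 to −0.613 percentage points), as did the higher downstream share in aged lists in 15 (0.985 to 4.75 points) and the larger width of outside peaks in 13 (361 to 527 bases). With 1 list left out, the width difference was 378 to 399 bases with an exact p of 0.0625, the smallest that 5 lists allow.

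The number of outside peaks, aged minus young, reversed to 6.67 with coding genes on the strand of the peak only and to 7 with the midpoint of the peak deciding. Among peaks at or above the median score of their list, reversals were seen for the noncoding share (3.55 points), the upstream share (−0.555 points), the score ratio (log2 −0.016) and recurrence (−0.062 points). Aged-only outside regions there numbered 5 of 169 (2.96%), beside 5.93% of all regions. In lists of equal length the noncoding share was 2.02 points and the upstream share −0.355 points, both reversed, with 3 aged-only and 18 young-only regions. With gene spans widened by 5 kb the noncoding share was 2.22 points. The score ratio was also reversed with the strand of the peak (log2 −0.019) and without the clusters (log2 −0.012). Aged-only regions numbered 13 with the strand of the peak, 15 by midpoint and 5 without the clusters, where young-only regions numbered 4. The outside regions in these settings were other sets, whose size is not given here, so these counts cannot be read as shares. With 1 list left out there were 8 to 17 aged-only regions and 7 to 18 young-only ones. The cause of the reversals was not tested. Leaving out the clusters, leaving out chromosome 14 and counting known strands only were chosen after the data were seen.

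A replicate block on the sample numbers, which the correlations do not show to pair the samples, gave the same difference of −0.807 points in the outside share (exact p = 0.25, the smallest for 3 pairs) and changed no call. The downstream and upstream shares have no value where spans are widened by 5 kb. Without read counts, peaks near the lowest score of 50 cannot be given a precision.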
